A study of Gallus gallus with 2 samples.

Results

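Xenobiotic-metabolizing enzymes handle drugs, plant compounds, microbial products and many of the body's own steroids, bile acids, retinoids and lipid aldehydes. Phase I enzymes, which include the cytochrome P450 monooxygenases, flavin monooxygenases, aldehyde and alcohol dehydrogenases and aldo-keto reductases, oxidize or reduce a compound, and phase II enzymes then join it to glutathione, glucuronic acid, sulfate or an acetyl group so that it can be excreted. In the gut these enzymes are best known from the absorbing epithelium, where they act on compounds taken up from the diet.

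The probes for these enzymes were found on a chicken array by gene name (the CYP, GST, MGST, UGT, SULT, ALDH, AKR, FMO, EPHX, NQO, ADH and NAT families) or by a description that reads cytochrome P450 or glutathione S-transferase. Of 42034 probes, 67 met this rule, 56 by name and 11 by description alone, and they carry 61 of the array's 40231 distinct gene names. No probe was named EPHX or MGST. One of the 67, FMOD, matches by its letters alone, since it encodes fibromodulin, a matrix protein. PTGES, prostaglandin E synthase, matched by its description and belongs to neither phase. The others are 48 probes of phase I and 17 of phase II. The array's names can be old, so the current RefSeq symbol is given in parentheses where it differs, as in CYP2C18 (CYP2C23b). Probe positions are those of the chicken build galGal2, per the file headers. Its gene annotation was not used here, so exon and intron are not given.

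RNA came from the intraepithelial lymphocytes of the intestine, mostly T cells that sit within the gut epithelium, of broiler chickens at day 14. One group received direct fed microbials (DFM), a feed additive of live microbes, and the other was the untreated control. The birds are labelled broiler in both groups, with no allele or strain beyond that, and the number of birds behind each RNA is not given in the labels. DFM RNA and control RNA were hybridized together on 2 two-colour arrays of 1 slide. DFM carried Cy5 on replicate 1, and the dyes were exchanged on replicate 2. The labels describe the second array both as a biological replicate and as the dye exchange, so the spread between the arrays may be technical. The p-values and SE below rest on that spread, which limma takes mostly from all tested probes together (1 residual and 7.52 prior degrees of freedom). They do not measure the spread of a single probe.

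Testing was limited to the 18242 probes for which DFM, control or both gave signal well above background on each of the arrays. Well above background means brighter than the local background by the scanner software's own test. The quantities are the normalized log2 signal, a level within 1 probe that is not compared between probes, and the log2 ratio of DFM over control, where -1 means a signal halved with DFM. Loess normalization sets the average probe of each array to 0, and the median ratio of the tested probes was 0.00. A probe was called when limma's adjusted p was under 0.05. In bulk RNA, fewer cells of a type and less RNA per cell cannot be told apart.

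Phase I enzyme probes mostly had negative ratios of DFM over control, and phase II probes had ratios on both sides of 0. Of the 67 probes, 46 were tested: 2 were called higher, 17 lower and 27 were not called. In the same limma test 22.6% of all tested probes were called, 12.1% higher and 10.5% lower, against 4.35% and 37.0% of the enzyme probes. Among the 6722 tested probes with a RefSeq symbol, 8.12% were higher and 14.1% lower. The median log2 ratio was -0.26 (-0.30 on replicate 1 and -0.21 on replicate 2). Ratios were negative on both arrays for 29 probes, positive on both for 10 and opposite in sign for 7. Over all 18242 tested probes, 6972 were negative on both arrays and 6890 positive on both.

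The 29 tested phase I probes gave 0 higher, 14 lower and 15 not called by limma, with a median log2 ratio of -0.42, and at an unadjusted p under 0.05 they gave 1 higher and 19 lower. Of the 16 tested phase II probes, 2 were higher, 2 lower and 12 not called, with a median of 0.17 (0.17 on replicate 1 and -0.01 on replicate 2). Each direction is 12.5% of them, near the 12.1% higher and 10.5% lower of all tested probes. PTGES was the remaining lower probe. Whether phase I and phase II differ was not tested, since probes are not replicates of a condition. The calls depend on the loess step: with each array centred on its median instead, limma called 0 enzyme probes higher and 0 lower (0 and 3 at an unadjusted p under 0.05) and 109 higher and 8 lower over all 18242 probes, while the enzyme probes' median was -0.28. Under that centring 93.2% of the calls over all probes were higher, against 53.4% with loess. The array's 10 spike-in control probes were also used for scaling, with their median taken as equal in both channels and their designed ratios not considered. The median of all tested probes then moved by 2.24 on the log2 scale, and that of the enzyme probes turned positive, at 1.98. Every direction given here is therefore relative to the average probe.

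**Figure D1:**
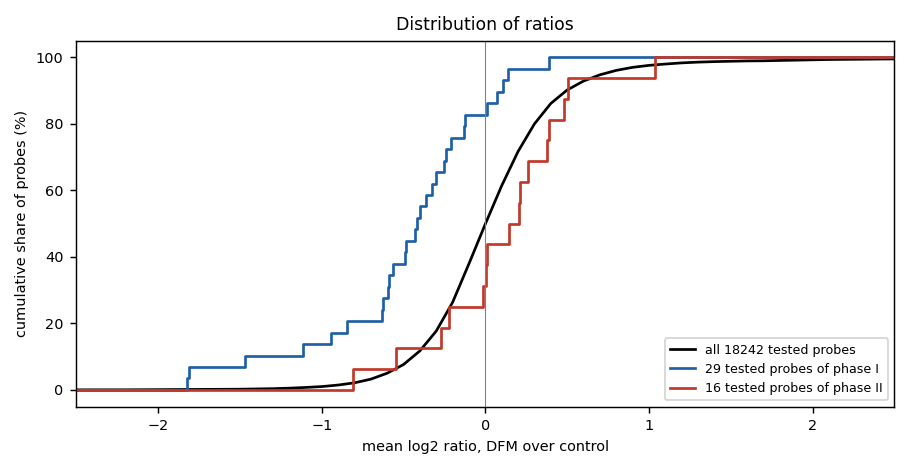
Cumulative share of probes (vertical axis, percent) by mean log2 ratio of DFM over control (horizontal axis) for the 29 tested phase I probes, the 16 tested phase II probes and all 18242 tested probes. The phase I curve lies to the left, with a median of -0.42, and the phase II curve passes its middle at 0.17.

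The cytochrome P450 probes were the most numerous and, in the main processing, held the 3 enzyme probes with the lowest mean ratios. This ranking changed with the processing: in the authors' deposited table ALDH1A2, at -2.15, lay below CYP2C18, at -2.08. P450s are heme enzymes that insert oxygen into their substrate with electrons from a reductase. Of 28 P450 probes, 11 were tested, and limma called 0 higher, 7 lower and 4 not called (1 higher and 9 lower at an unadjusted p under 0.05), with a median ratio of -0.59. Lower calls were 63.6% of the tested P450 probes, against 10.5% of all tested probes and 14.1% of those with a RefSeq symbol. The 7 lower probes come from the CYP2, CYP3, CYP4 and CYP20 families.

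CYP2C18 (CYP2C23b), a CYP2C-type enzyme at chr6:16755948-16756007 on the minus strand, had a log2 signal of 8.23 and 8.46 in the DFM samples, against 10.08 and 10.26 in the control samples. Both DFM values lay below both control values by over 1 log2 unit. Its log2 ratios of -1.85 and -1.80 averaged -1.83 (limma's moderated SE 0.12 with 2 arrays, as for all SE values here, adjusted p = 2.98e-05), or 3.54-fold lower. CYP2H1 (CYP2C23a), known from chicken liver as a P450 induced by phenobarbital, lies 11.63 kb away on the same chromosome (chr6:16767634-16767693). Its signal was 12.35 and 12.50 with DFM, against 13.49 and 13.25 in control, and the groups did not overlap. The ratios were -1.14 and -0.75 (mean -0.94, SE 0.14, adjusted p = 0.00282), so the neighbour fell 1.92-fold. Separate groups in called probes, here and below, add no evidence to the calls, and their share over all probes was not computed.

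The CYP3A subfamily, which in mammals oxidizes many drugs and steroids, was represented by a pair of probes 29.03 kb apart on chromosome 14. CYP3A37 (CYP3A5), at chr14:6079415-6079474, measured 11.14 and 11.31 with DFM, against 13.27 and 12.80 in control. The drop was larger on replicate 1 (-2.13) than on replicate 2 (-1.49), with a mean of -1.81 (SE 0.17, adjusted p = 0.000196), or 3.51-fold. CYP3A80 (CYP3A4), whose probe spans chr14:6049375-6050385, measured 8.85 and 9.17 with DFM and 10.70 and 10.26 in control. Here too the groups did not overlap, replicate 1 showed the larger ratio (-1.85 against -1.09 on replicate 2), and the mean was -1.47 (SE 0.18, adjusted p = 0.000997). Probes of such close paralogs can take up each other's RNA, and the extent of this was not tested.

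In the main processing, ratios of the other called P450 probes were smaller. LOC424676 (CYP2J23), of a subfamily that forms epoxides of arachidonic acid in mammals, had 6.39 and 6.57 with DFM and 7.23 and 7.0 in control, a mean ratio of -0.63 (adjusted p = 0.0154). CYP20A1, a P450 with no well-known substrate, had 7.44 and 7.29 with DFM and 8.0 and 7.90 in control (mean ratio -0.59, adjusted p = 0.0121). CYP4V (CYP4V2), a fatty acid omega-hydroxylase in humans, had 11.69 and 11.61 with DFM and 12.14 and 12.29 in control (mean ratio -0.57, adjusted p = 0.0173). None of the 3 had overlapping groups, a trait whose share over all probes was not computed.

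No probe of the dioxin-responsive CYP1A genes was called in the main fit. These genes, induced through the aryl hydrocarbon receptor, have a pair of tested probes 5.05 kb apart on chromosome 10, and the ratios of these had opposite signs. CYP1A4 (CYP1A1) measured 7.93 and 7.75 with DFM and 7.51 and 7.39 in control (ratios 0.42 and 0.36, adjusted p = 0.0558). CYP1A1 (CYP1A2) measured 6.32 and 6.09 with DFM, the second not well above background, and 6.62 and 6.58 in control (ratios -0.31 and -0.50, adjusted p = 0.0542). Neither passed the threshold in the main fit, but this depended on the processing. With no offset in the background correction, limma called CYP1A1 lower, at -1.16 (adjusted p = 0.0115). In the authors' deposited table CYP1A1 had -1.79 and was not called (adjusted p = 0.0514). Without a filter on dim probes CYP1A1 was called lower and CYP1A4 higher. LOC417981 (CYP2D6), of a subfamily that oxidizes drugs in humans, missed the threshold of the main fit as well, at ratios of -0.60 and -0.26 (adjusted p = 0.0544). A probe named CYP1A2 was not well above background in any channel.

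The P450s of steroid, bile acid, vitamin and retinoid metabolism were largely undetected. CYP17A1, a steroid hydroxylase and lyase, was tested and not called, with ratios of 0.03 and 0.25. CYP24A1, which degrades active vitamin D, was well above background in 1 channel, DFM on replicate 1, and was not tested. LOC424944 (CYP2AB1) was likewise well above background in that channel alone. In all, 15 P450 probes were well above background in no channel. They include both probes of CYP7A1, the rate-limiting enzyme of bile acid synthesis, as well as CYP7B1, CYP8B (CYP8B1) and LOC422058 (CYP39A1), which act on sterols. CYP11A1 and CYP19A1, the steroidogenic side-chain cleavage enzyme and aromatase, CYP26A1 and CYP26C1, which degrade retinoic acid, and CYP2R1, a vitamin D hydroxylase, were not detected either. The remaining ones are CYP1A2, CYP2C45 (CYP2C18), LOC424618 (CYP4B7) and the unnamed transcripts TC188810 and TC227385.

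**Figure D2:**
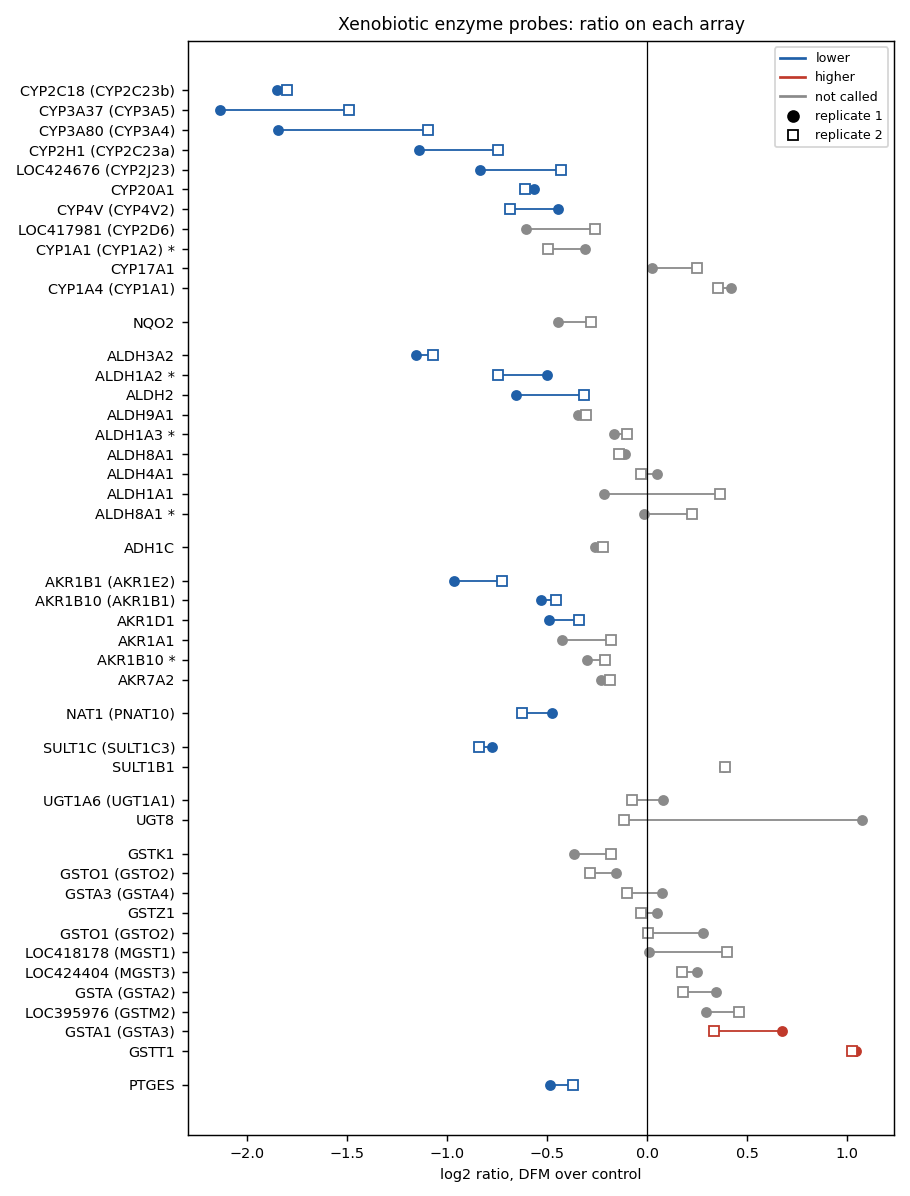
Log2 ratio of DFM over control on each array (horizontal axis) for 45 of the 46 tested probes, grouped by enzyme class from top to bottom, with filled circles for replicate 1 and open squares for replicate 2. Blue marks probes called lower, red probes called higher, grey probes not called, and an asterisk a probe not well above background in every channel. CYP2C18, CYP3A37 and CYP3A80 reach the lowest ratios, and GSTT1 lies near 1 on both arrays.

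NQO2, a quinone reductase, measured 8.11 and 8.07 with DFM and 8.56 and 8.35 in control, and its ratios of -0.45 and -0.28 were not called (adjusted p = 0.0737).

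Aldehyde dehydrogenases oxidize aldehydes from lipid breakdown, ethanol and retinol to acids. Of 11 probes 9 were tested, and limma called 0 higher, 3 lower and 6 not called (0 higher and 4 lower at an unadjusted p under 0.05), with a median ratio of -0.13. The lower share was 33.3%, against 10.5% of all tested probes and 14.1% of those with a RefSeq symbol. ALDH3A2, the fatty aldehyde dehydrogenase, at chr19:6416445-6417244, measured 8.23 and 8.09 with DFM, against 9.38 and 9.16 in control. Groups did not overlap, and the arrays gave close ratios of -1.15 and -1.07 (mean -1.11, SE 0.12, adjusted p = 0.000659), or 2.16-fold. ALDH2, the mitochondrial enzyme that clears acetaldehyde, measured 12.24 and 12.66 with DFM and 12.89 and 12.97 in control (mean ratio -0.49, adjusted p = 0.036).

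Of the retinaldehyde dehydrogenase probes, whose enzymes make retinoic acid, that of ALDH1A2 was called. ALDH1A2 measured 6.21 and 6.21 with DFM, the second value not well above background, against 6.71 and 6.96 in control, and fell by 0.62 on the log2 scale (adjusted p = 0.0119). ALDH1A1 had ratios of opposite sign, -0.22 and 0.36, and ALDH1A3 measured -0.16 and -0.10. Neither was called. ALDH9A1, which acts in carnitine and polyamine metabolism, measured -0.35 and -0.30 and missed the threshold (adjusted p = 0.0933), while its second probe was not detected. ALDH4A1, of proline breakdown, and both probes of ALDH8A1 had ratios between -0.14 and 0.22 on the arrays. ALDH1L2, a folate enzyme of the mitochondrion, was well above background in no channel. The only alcohol dehydrogenase probe, ADH1C, had ratios of -0.26 and -0.22 (adjusted p = 0.199).

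Aldo-keto reductases reduce carbonyl groups of sugars, lipid aldehydes and steroids. All 6 probes were tested and had negative ratios on both arrays, and limma called 3 lower and 0 higher (4 and 0 at an unadjusted p under 0.05), with a median ratio of -0.36. Of all 18242 tested probes, 6972 were negative on both arrays and 10.5% were called lower (14.1% of those with a RefSeq symbol). AKR1B1 (AKR1E2) at chr1:58781291-58781920 measured 8.51 and 8.56 with DFM, against 9.48 and 9.28 in control. The groups did not overlap, and the mean ratio was -0.85 (SE 0.13, adjusted p = 0.00328). A probe named AKR1B10 (AKR1B1), an aldose reductase probe 24.57 kb away, measured 9.18 and 9.22 with DFM and 9.71 and 9.68 in control (mean -0.49, adjusted p = 0.0242).

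A second AKR1B10 probe, well above background in 3 channels, had ratios of -0.30 and -0.21 and was not called in the main fit. With no offset in the background correction limma called it lower, at -0.70 (adjusted p = 0.0321). In the authors' deposited table it was also lower, at -1.07 (adjusted p = 0.0400). The AKR1B10 (AKR1B1) probe lost its call under both. AKR1D1, the steroid reductase of bile acid synthesis, measured 11.14 and 11.32 with DFM and 11.63 and 11.66 in control (mean -0.42, adjusted p = 0.0468). AKR1A1, an aldehyde reductase, had a mean ratio of -0.30 (adjusted p = 0.13). AKR7A2, of a family that reduces aflatoxin dialdehyde, measured 15.36 and 15.36 with DFM and 15.59 and 15.54 in control and was not called either (mean -0.21, adjusted p = 0.261).

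Glutathione S-transferases join glutathione to reactive compounds, and in the main processing the 2 higher calls among the enzyme probes were theirs. These calls are 18.2% of the class's tested probes, against 12.1% of all tested probes and 8.12% of those with a RefSeq symbol. A count of 2 is not read as a trait of the class. Of 12 probes 11 were tested, and limma called 2 higher, 0 lower and 9 not called (3 higher and 0 lower at an unadjusted p under 0.05), with a median ratio of 0.20. GSTT1, the theta-class enzyme that also handles small halogenated compounds, at chr15:8057237-8057296, measured 9.40 and 9.26 with DFM, against 8.36 and 8.24 in control. Its groups did not overlap, and the arrays gave close ratios of 1.05 and 1.02. Their mean of 1.03 (SE 0.12, adjusted p = 0.00094) corresponds to 2.05-fold. Over all tested probes 2.41% were at least 2-fold higher with a call and 1.00% at least 2-fold lower.

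The alpha-class genes lie side by side on chromosome 3, and 1 of their 3 mapped probes was called. GSTA1 (GSTA3) measured 9.53 and 8.18 with DFM, against 8.86 and 7.85 in control. DFM was higher within each array, but the level of both groups was higher on replicate 1 than on replicate 2, so the groups overlapped across arrays. The ratios were 0.67 and 0.34 (mean 0.51, SE 0.14, adjusted p = 0.0313). The GSTA1 call was lost with no offset in the background correction (limma's adjusted p = 0.0593) and in the authors' deposited table (adjusted p = 0.114). GSTA (GSTA2), 29.01 kb from GSTA1, had ratios of 0.35 and 0.18 (adjusted p = 0.172), and GSTA3 (GSTA4), 8.36 kb away on the other side, had 0.08 and -0.10. A second probe named GSTA3 was not detected.

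The mu-class probe LOC395976 (GSTM2) measured 11.42 and 11.21 with DFM and 11.13 and 10.75 in control, and its mean ratio of 0.38 missed the threshold (adjusted p = 0.0639). The membrane-bound LOC418178 (MGST1) and LOC424404 (MGST3) had mean ratios of 0.20 and 0.21, the kappa-class GSTK1 -0.27, and GSTZ1, the maleylacetoacetate isomerase of tyrosine breakdown, 0.01. The probes of GSTO1 (GSTO2), an omega-class enzyme, had -0.22 and 0.14. None of these 6 probes was called.

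The glucuronosyltransferase probes, 2 in number, were not called by limma (0 at an unadjusted p under 0.05). UGT1A6 (UGT1A1), whose mammalian counterpart glucuronidates bilirubin, had nearly the same signal in both groups, 12.82 and 12.72 with DFM and 12.74 and 12.79 in control. UGT8, which makes galactosylceramide rather than handling foreign compounds, measured 11.08 and 10.72 with DFM and 10.005 and 10.84 in control. Its arrays disagreed, at ratios of 1.08 and -0.12 (adjusted p = 0.183).

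Sulfotransferases and the N-acetyltransferase complete phase II. SULT1C (SULT1C3), a cytosolic sulfotransferase of phenolic compounds at chr1:129285639-129285698, measured 12.13 and 12.02 with DFM, against 12.91 and 12.86 in control. The groups did not overlap, and the mean ratio was -0.81 (SE 0.12, adjusted p = 0.00318), or 1.75-fold lower. SULT1B1, of the same superfamily, was on the other side of 0, with 7.24 and 7.26 with DFM and 6.85 and 6.87 in control, a mean ratio of 0.39 that missed the threshold (adjusted p = 0.0552). NAT1 (PNAT10), which acetylates arylamines, measured 7.92 and 7.77 with DFM and 8.39 and 8.40 in control (mean ratio -0.55, adjusted p = 0.0174). PTGES, which forms prostaglandin E and is no conjugating enzyme, measured 7.28 and 7.40 with DFM and 7.77 and 7.77 in control (mean ratio -0.43, adjusted p = 0.041).

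**Figure D3:**
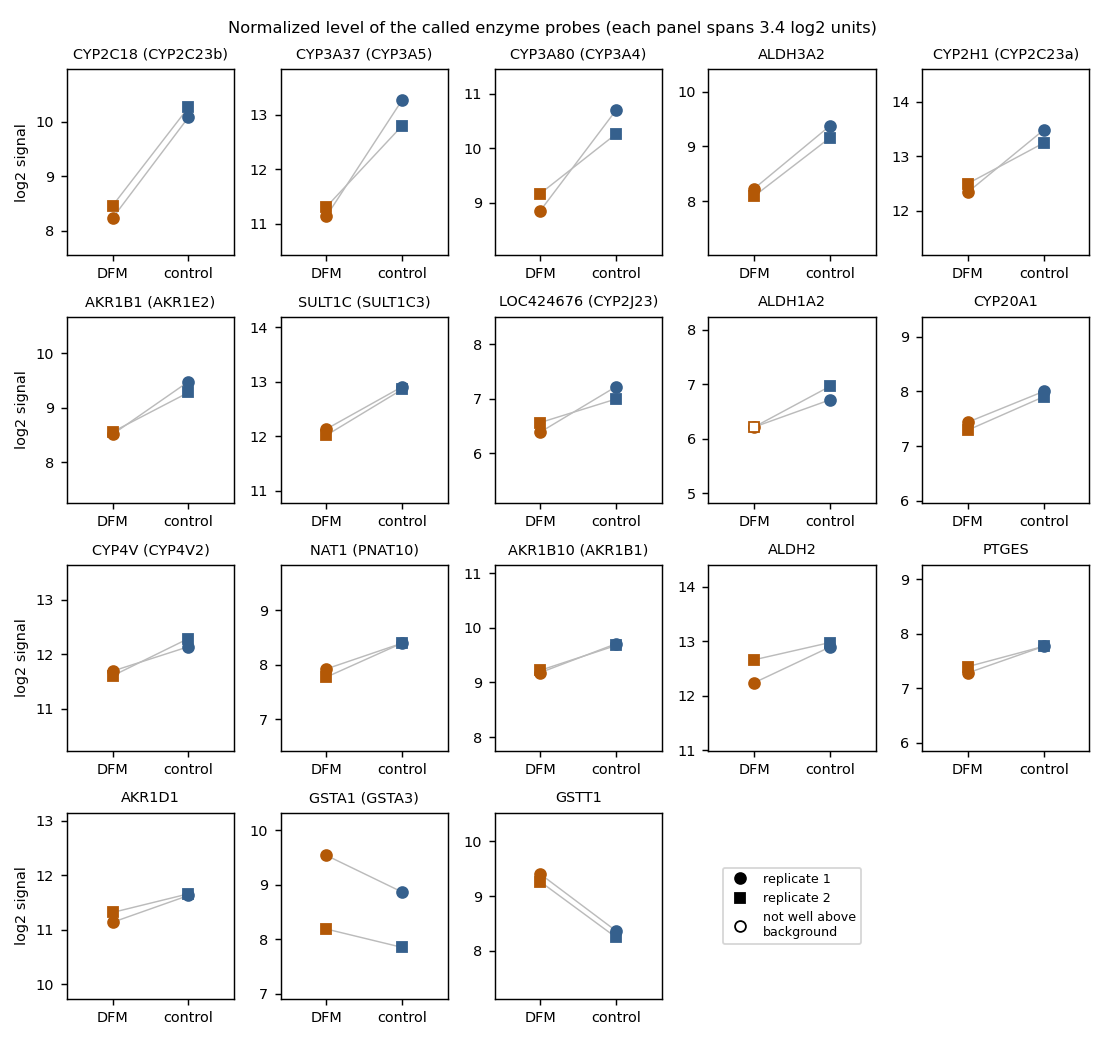
Normalized log2 signal (vertical axis) of 18 of the 19 called probes in the DFM and control channels, 1 panel per probe and each panel spanning the same height. Circles are replicate 1, squares replicate 2, grey lines join the channels of 1 array, and open symbols are not well above background. Both DFM values lie on the same side of both control values except in the GSTA1 panel, where the groups overlap. Only called probes are drawn, so this separation adds no evidence to the calls, and its share over all probes was not computed.

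Fewer probes were called from the values of the authors' deposited table, 1179 higher and 951 lower over all probes, against 2202 and 1918 after normexp and loess. In the authors' deposited table, tested the same way, 1 enzyme probe was called higher and 8 lower, and 11 of the 19 calls were lost, with the enzyme probes' median at -0.42. CYP2C18, CYP3A37, CYP3A80, LOC424676, ALDH3A2 and ALDH1A2 were still lower there and GSTT1 higher. The second AKR1B10 probe, not called in the main fit, was called lower in that table. Among the 40 enzyme probes well above background in all 4 channels, 2 were higher and 15 lower in the main fit. With the fit limited to such probes, 2 were higher and 16 lower, against 2036 higher and 1973 lower of 15788 over all probes.

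The rule by name misses probes that the array lists under a locus number. With RefSeq symbols added, 27 further probes qualified and 14 of them were tested, of which limma called 1 higher and 2 lower. LOC422661 (SULT1B) was lower, with ratios of -0.61 and -0.73 (adjusted p = 0.00749), so it and SULT1B1 lay on opposite sides of 0. Epoxide hydrolase LOC421999 (EPHX2), which opens fatty acid epoxides, had probes called in opposite directions, with mean ratios of 0.49 and -0.47. LOC420548 (CYP51A1), of sterol synthesis, had -0.16 and -1.02 and was not called (adjusted p = 0.0583). The epoxide hydrolase probe of LOC421321 (EPHX1) had a mean ratio of -0.05. This wider set gave 3 higher and 19 lower of 60 tested, with a median of -0.21.

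Genes that sense foreign compounds and switch on these enzymes were mostly not called, as were most of all tested probes. Over all tested probes limma called 12.1% higher and 10.5% lower, and over those with a RefSeq symbol 8.12% and 14.1%. Of 14 tested sensors and partners, limma called 0 higher, 3 lower and 11 not called (0 higher and 4 lower at an unadjusted p under 0.05), with a median ratio of -0.19. HNF4A, a nuclear receptor of liver and gut epithelium, fell by 1.12 on the log2 scale (adjusted p = 0.00062), and the small MAF factor gene MAFF fell by 0.60. The xenobiotic receptor genes AHR and NR1I3 had mean ratios of 0.09 and -0.24 and were not called, nor was NFE2L2, which encodes the antioxidant factor NRF2, at -0.15. Of 8 NRF2 target genes outside the enzyme families, limma called 0 higher, 5 lower and 3 not called (0 and 5 at an unadjusted p under 0.05), with a median of -0.52. The lower ones include the peroxiredoxin gene PRDX6 at -0.92 and the heme oxygenase gene HMOX1 at -0.58. Each list gene is counted by its brightest tested probe, and another probe of FTH1, counted here as not called, was higher.

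Of 14 genes that supply electrons and cofactors, limma called 1 higher, 4 lower and 9 not called (median -0.18). At an unadjusted p under 0.05 limma gave 2 higher and 5 lower. Over all tested probes 12.1% were called higher and 10.5% lower, and over those with a RefSeq symbol 8.12% and 14.1%. PAPSS1, which makes the sulfate donor of sulfotransferases, measured 9.94 and 10.09 with DFM and 6.50 and 6.77 in control, a mean ratio of 3.38. PGD and ME1, which make NADPH, had mean ratios of -1.07 and -0.70, UGP2, which makes UDP-glucose, -0.71, and the glutathione synthetase gene GSS -0.64. ALAS1, the first enzyme of heme synthesis, missed the threshold at -0.43 (adjusted p = 0.0505). 

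Of 12 transporter genes, 1 was higher, 3 lower and 8 not called (median -0.25), with the export pump genes ABCC4 at 1.05, ABCB1 (ABCB4 on the array) at -0.93 and ABCC3 at -0.42, and the organic cation exporter gene SLC47A1 at -0.89. Of 12 other conjugating and hydrolysing enzyme genes, 1 was higher, 3 lower and 8 not called (median -0.07). At an unadjusted p under 0.05 limma gave 2 higher and 4 lower transporter genes, and 1 and 3 of these other enzyme genes. For both lists, the shares over all tested probes with a RefSeq symbol were 8.12% higher and 14.1% lower. HPGD, which inactivates prostaglandins, had a mean ratio of -1.01, the retinal reductase gene DHRS3 -0.67, the peroxisomal enzyme gene HSD17B4 -0.61 and the carbonyl reductase gene CBR4 0.58.

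**Figure D4:**
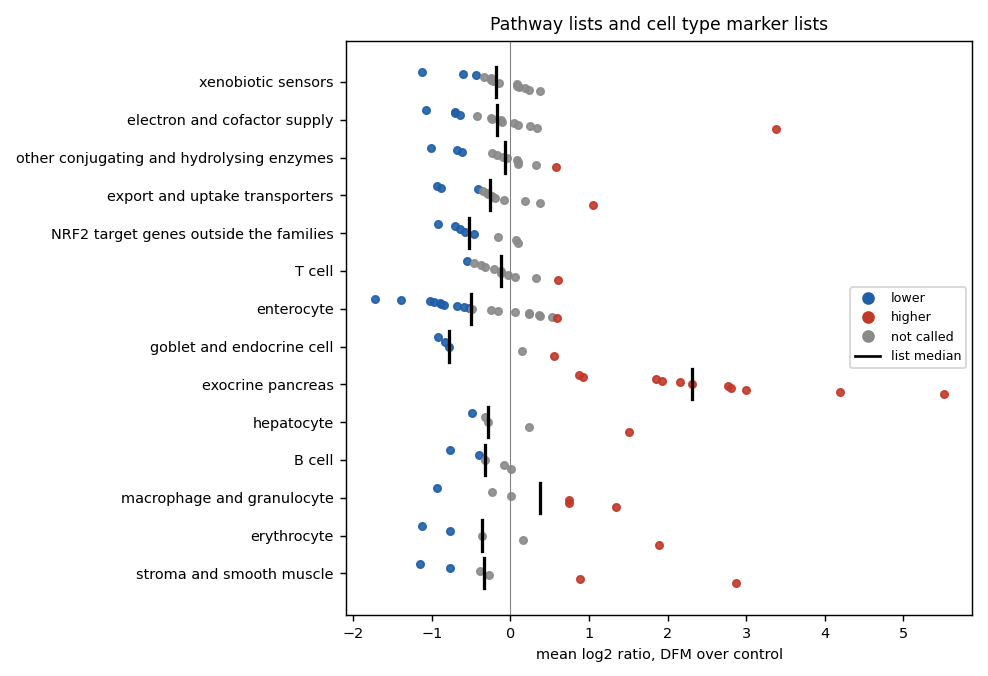
Mean log2 ratio of DFM over control (horizontal axis) of each tested gene in the pathway lists and in the cell type marker lists, with a black bar at each list's median. Blue genes were called lower, red higher and grey not called. The enterocyte median lies at -0.50 and the exocrine pancreas median at 2.31.

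Markers of some other cell types moved with the same comparison, and their part in the enzyme results was not tested. Over all tested probes limma called 12.1% higher and 10.5% lower, and over those with a RefSeq symbol 8.12% and 14.1%. A list with only 1 or 2 calls in a direction is not read as moved. Of 20 tested enterocyte genes, 1 was higher, 10 lower and 9 not called (median -0.50, or -0.49 and -0.28 on the arrays), and the summed linear signal was 667321 to 796148 with DFM and 769333 to 886665 in control. FABP2 and SI, defining enterocyte genes, were well above background in no channel. VIL1, CDX2, APOA4, ANPEP and FABP1 were well above background in all 4 channels, with VIL1 at 16.06 and 16.10 with DFM and 16.40 and 16.25 in control. Of these, APOA4 was called lower and the others were not called. All 11 tested exocrine pancreas genes were higher (median 2.31), with summed signals of 21925 to 22584 with DFM and 1400 to 1403 in control, and PRSS2 and PRSS3 in no channel. Most of the DFM sums is the signal of the CPA1 probe, at 13.92 and 13.95 with DFM and 8.20 and 8.64 in control. The difference in sums therefore does not describe the pancreas list as a whole. The labelled cells were checked against T cell genes: of 11 tested, 1 was higher, 1 lower and 9 not called (median -0.12), with sums of 33142 to 38733 with DFM and 50433 to 51722 in control, and TRAT1 in no channel. Most of these T cell sums is the signal of a single probe, that of CD3D. CD3D measured 15.05 and 14.81 with DFM and 15.49 and 15.47 in control and was the lower gene, while CD5 was the higher one. The sums therefore do not describe the T cell list as a whole. Of 5 tested hepatocyte genes 1 was higher and 1 lower (median -0.28), with sums of 955 to 1094 with DFM and 1008 to 1043 in control, and FGA, TTR, AHSG and ITIH3 in no channel. Of 5 goblet and endocrine cell genes, 1 was higher and 3 lower (median -0.78), of 5 B cell genes 0 and 2 (0 and 3 at an unadjusted p under 0.05), of 6 macrophage and granulocyte genes 3 and 1, of 5 erythrocyte genes 1 and 2, and of 6 stroma and smooth muscle genes 2 and 2. Some genes had further probes with another call. MUC2, counted lower, had a higher probe, and ANPEP and FCGBP, counted not called, had a lower probe each. PECAM1 and FBN1, counted higher, had further probes not called.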

How the data were processed

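Intensity values, deposited uncorrected per the file headers, give a spot's mean brightness and its local background's median in Cy5 and Cy3. The scanner software's log10 ratio of the dyes and the p-value of that ratio, deposited per the file headers, entered no result here. Deposited too are flags for control spots, outliers and signal well above background. In the authors' table the log2 columns equalled, within 0.001 at each of 42034 probes, the ratio of the software's dye-normalized signals turned to DFM over control, with medians of -0.274 and 0.204. The software is Agilent Feature Extraction, version 10.7.3.1 per the submitters' processing notes and 9.5.3.1 per the file headers.

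Signals were background-corrected by normexp (offset 50) and loess-normalized within arrays, giving control spots no weight, with R 4.3.3, limma 3.58.1 and the package data.table (version 1.17.8). Channel levels were taken after Aquantile scaling between arrays. The ratio of replicate 2 was turned. Each of 18242 probes was tested against 0 with lmFit and eBayes (1 residual and 7.52 prior degrees of freedom), two-sided, with Benjamini-Hochberg adjustment over all of them. SE is limma's moderated standard error. A simulation of the same size left 18042 of 18242 probes without a difference, and limma falsely called 6 of these. Of 50 probes set to 1.5-fold limma found 14%, and of 50 set to 2-fold 92%. In the measured arrays limma called 22.6% of tested probes, and the unadjusted p that passes rises with the number of calls. The simulated rates of recovery and of false calls therefore do not carry over to these arrays. Between 16889 and 21122 probes per channel were well above background, and no probe was saturated. A group dim on both arrays has only a bound, the bright group's mean over the higher of the dim probe's signal and the lowest signal well above background per array. A list gene with several probes was represented by its brightest tested probe, found by RefSeq symbol first and array name after. RefSeq names came from assembly GRCg7b, used for names only, and matched 65 of the 67 enzyme probes.

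Probes named in full are, per family, the called ones (up to 5 each way), the brightest, those of genes with differing calls and those detected in 1 group. The members and lists were chosen with earlier results of these data known. The alternatives were other offsets, centrings, filters, scalings, an intensity trend, 1 probe per gene, the authors' table and leaving out each array. The wider set by RefSeq symbol was added after seeing the data. No probe or protein sequence was used here, and a few single-gene values are not reported here.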

Additional observations from a re-analysis of the deposited data

How the results depend on the processing

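Of the 46 tested enzyme probes, 25 kept direction and side of the threshold under median centring, 33 with the authors' table and 37 with offset 0. The 25 under median centring were all uncalled in the main fit. A call needs a mean ratio far from 0 beside the spread between arrays, so leaving out 1 array could hardly turn a called probe. No called probe changed sign under these 3 alternatives or with either array left out. Uncalled probes near 0 did: GSTZ1 and ALDH4A1 measured -0.0047 and -0.014 under median centring, UGT1A6 measured -0.036 with the authors' table, and the 7 probes with opposite signs on the arrays turn with the array kept. With the normexp offset at 0 the enzyme probes' median was -0.33, with 14 lower and 2 higher. Those 2 were GSTT1 and SULT1B1, since GSTA1 lost its call and SULT1B1 gained one. Median centring gave limma counts of 0 higher and 0 lower (0 and 3 at an unadjusted p under 0.05) and ended all 19 calls, while over all 18242 probes it called 109 higher and 8 lower. The authors' table gave 1 higher, 8 lower and a median of -0.42 (1179 higher and 951 lower over all probes). Without a filter on dim probes 5 of 67 were higher and 18 lower, with a median of -0.067 (2301 higher and 2093 lower of 42029 over all probes). Setting the arrays to 10 spike-in probes, whose median log2 ratios were -1.84 and -2.65, moved the median of all tested probes by 2.24. On that scale limma called 18197 of all 18242 probes higher and 2 lower, and among them 43 of 46 enzyme probes higher and 0 lower (0 lower at an unadjusted p under 0.05), with a median of 1.98, while the order among probes is that of the loess scale. Without replicate 1 the median was -0.21 and without replicate 2 it was -0.30, and a lone array allows no test. The cause of these changes was not tested. The test of within-array ratios already pairs DFM with control, so no replicate block was added. Only 2 arrays, and dim signal for 19 undetected probes, limit the precision.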

Other observations

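Levels and ratios of a few enzyme probes differed between the arrays more than those of most tested probes. The GSTA1 level was 1.18 log2 units higher on replicate 1 than on replicate 2, averaged over both groups, and 0.115% of tested probes were as far apart. The UGT8 ratio differed by 1.19 between the arrays, and 0.219% of tested probes differed by as much. Over the 46 tested enzyme probes, the median difference in ratio between arrays was 0.16 on the log2 scale, against 0.19 over all tested probes.

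Neighbouring genes were called alike at 3 places on galGal2 (CYP2C18 with CYP2H1, CYP3A80 with CYP3A37, and AKR1B10 with AKR1B1, each lower), and differently among the alpha-class glutathione S-transferases. Shared probe sequence was not examined.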
